A study of Schizosaccharomyces japonicus with 6 samples.

Results

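The genes described here encode subunits of the Ccr4-Not complex in the fission yeast *Schizosaccharomyces japonicus*: *ccr4*, *caf1*, *not2*, *not3*, *mot2* and *rcd1*. They were picked by gene name as subunits of the complex, with earlier results of these data known, and all 6 were among the 5272 genes of the deposited table. Total RNA was sequenced from vegetative cells of 3 strains, with 2 libraries per strain that the series text calls biological replicates. The strains were wild type (WT, NIG5572), *pab2*Δ and *clr4-1*, all grown in the rich medium YES at 30°C to mid log phase. In *pab2*Δ the gene for the nuclear poly(A)-binding protein Pab2 was removed by gene replacement. The *clr4-1* strain carries a temperature-sensitive allele of the gene for the histone H3 Lys9 methyltransferase Clr4, isolated after random mutagenesis by PCR, and Clr4 is essential in this species. The level of the mutant protein was not measured here. The labels do not say which entry of the study's strain list was sequenced for either mutant. Both mutants were compared with the same WT libraries, so the comparisons with WT are not independent of each other.

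Ccr4-Not is a conserved complex that shortens the poly(A) tails of mRNAs, the step that usually starts cytoplasmic mRNA decay. Ccr4 and Caf1 are its nucleases, Not1 is the large scaffold on which the other subunits assemble, Not2 and Not3 form a module that binds the scaffold, Mot2 (the counterpart of Not4 in budding yeast) is a RING-type ubiquitin ligase, and Rcd1 (the counterpart of budding yeast Caf40) binds the scaffold and proteins that bring target mRNAs. In *Schizosaccharomyces pombe*, the RNA-binding protein Mmi1, which marks meiotic transcripts for removal in vegetative cells, associates with Ccr4-Not. Poly(A)-binding proteins coat the tails that these nucleases remove, and Pab2 acts on them in the nucleus.

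Values are FPKM, fragments per kilobase of transcript scaled by the mapped fragments of the library, so they are relative to the rest of each library. Read depth per library is unknown, and a value per gene in bulk RNA cannot tell lower RNA per cell from fewer cells that make it. The FPKM sums of the libraries ran from 910209 to 1080821 and were lowest in *pab2*Δ. The 10 most abundant genes, all for ribosomal proteins, held 28.4 to 29.7% of the WT sum, 27.6 to 28.4% of the *clr4-1* sum and 24.9 to 25.3% of the *pab2*Δ sum. In the fit described in the methods, the median log2 difference over the 4899 genes tested was 0.19 for *pab2*Δ against WT and −0.06 for *clr4-1* against WT. A difference near 0.19 in *pab2*Δ is therefore that of the middle gene, and changes below are also given relative to this median. The part of the ribosomal protein share in this shift was not tested. *pab2* itself was at 145 and 142 FPKM in WT, at 161 and 174 in *clr4-1* and listed at 0 in both *pab2*Δ libraries. *clr4* was at 9.34 and 9.48 FPKM in WT, 19.6 and 23.3 in *clr4-1* and 9.70 and 7.99 in *pab2*Δ. A substitution allele leaves the transcript, so this level checks no label.

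All 6 subunit genes were expressed in every library. In WT, *not2* had the highest level, at 65.7 and 64.0 FPKM, followed by *ccr4* at 56.5 and 57.2. Next came *mot2*, at 49.7 and 46.4 FPKM, and *not3*, at 46.5 and 45.9, whose ranges overlapped, so that their order in WT was not resolved. *caf1* was at 44.6 and 41.3 FPKM. *rcd1* was far below the others, at 20.9 and 21.5 FPKM. In WT, *not2* ranked at percentile 74 of the genes tested and *rcd1* at percentile 41.3. FPKM divides by gene length, and the RefSeq gene spans (assembly SJ5) run from 843 bases for *rcd1* to 2585 bases for *not3*; the gene models behind the deposited values are not given in the sources used here. Replicates lay close together. The widest replicate gaps among these genes, on the log2 scale, were 0.144 for *rcd1* in *clr4-1* and 0.132 for *not2* in *pab2*Δ, against median gaps over all genes of 0.0514 to 0.0558 in the 3 strains.

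**Figure D1:**
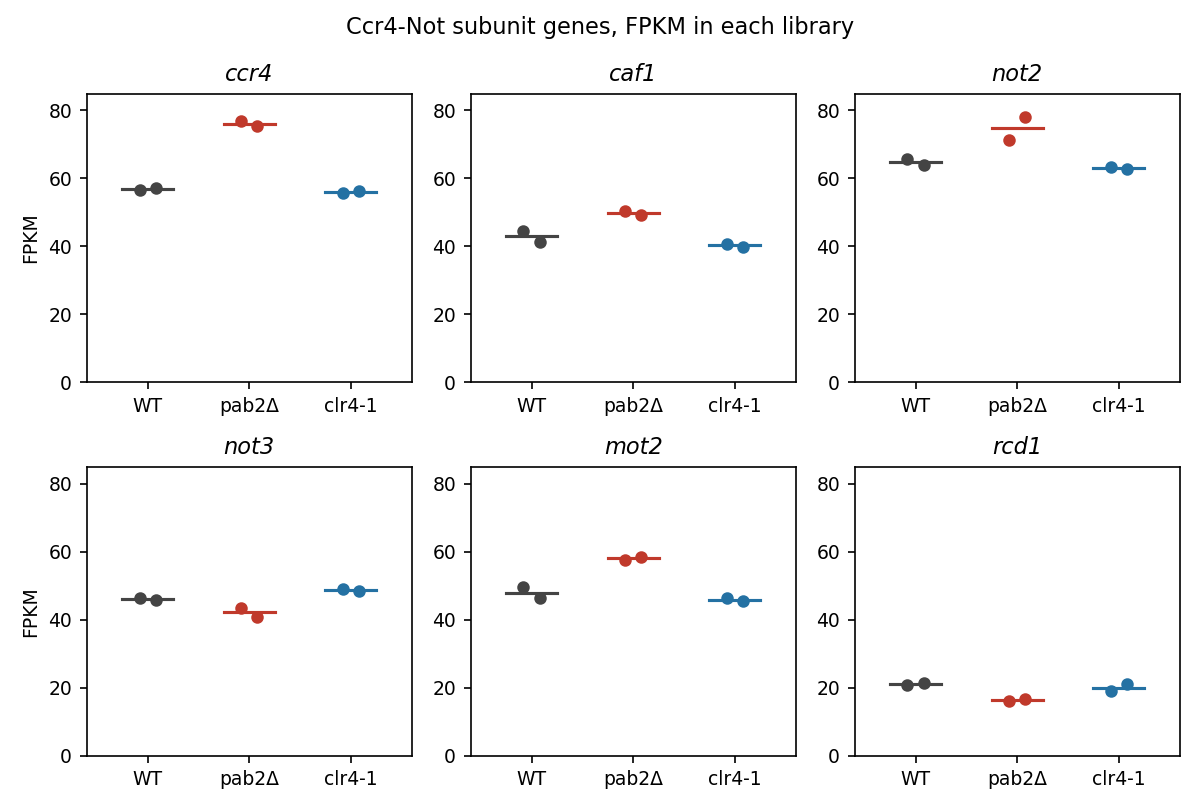
Level in FPKM (linear axis) of each of the 6 Ccr4-Not subunit genes by strain, with 1 point per library and a line at the mean of the 2 libraries. The *pab2*Δ points lie above WT for *ccr4*, *caf1*, *not2* and *mot2* and below WT for *not3* and *rcd1*, as deposited, and the *clr4-1* points stay near WT.

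In *pab2*Δ the subunit genes did not all move one way as deposited: *ccr4* rose, *rcd1* and *not3* fell, and *caf1*, *not2* and *mot2* rose by about as much as the middle gene of the transcriptome. As deposited, limma with Benjamini-Hochberg adjustment called 4 of the 6 higher, where 53.8% of all genes tested were called higher, and 2 of the 6 lower, where 19.9% of all genes were called lower. As counts these are close to the background. The same genes did not overlap between the strains, 4 above WT, as 61.4% of all genes were, and 2 below WT, as 25.5% were. No gene of the 6 passed the rule that all 4 mutant to WT ratios exceed 2-fold, which 9.62% of all genes passed, or the same rule at 1.5-fold, which 21.1% passed. The median log2 difference of the 6 was 0.20, beside 0.19 for all genes.

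Of the nuclease genes, *ccr4* encodes an exonuclease of the endonuclease-exonuclease-phosphatase family. It was at 76.8 FPKM in the first and 75.4 FPKM in the second *pab2*Δ library of the table, against 56.5 and 57.2 in WT. Both *pab2*Δ values were above both WT values, and the gap was many times the spread within either strain. The ratio of means was 1.34, the log2 difference was 0.41 (SE 0.030, limma adjusted p = 7.91e-05), and it was 0.22 above the all-gene median. *ccr4* was also called higher in both rescaled fits. With TMM scaling, which sets the trimmed mean of the log ratios between libraries to 0, the log2 difference was 0.20 (limma adjusted p = 0.00177). With every library scaled to the same FPKM sum, called equal-sum scaling here, it was 0.62 (limma adjusted p = 1.97e-05). *caf1*, for the nuclease of the DEDD family that also links Ccr4 to the scaffold, was at 50.3 and 49.3 FPKM in *pab2*Δ against 44.6 and 41.3 in WT. The strains did not overlap, and the log2 difference was 0.21 (SE 0.045, limma adjusted p = 0.00705). That is 0.01 above the all-gene median, and with TMM scaling the difference was 0.00 (adjusted p = 0.993).

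The genes of the Not2-Not3 module went opposite ways as deposited. *not2* was at 71.3 and 78.2 FPKM in *pab2*Δ against 65.7 and 64.0 in WT, without overlap. Its log2 difference was 0.20 (SE 0.049, limma adjusted p = 0.0120), 0.01 above the all-gene median, and it became −0.01 (adjusted p = 0.867) with TMM scaling. Without WT replicate 2 it was 0.18, and limma no longer called it (adjusted p = 0.0662). *not3* was at 43.6 and 40.8 FPKM in *pab2*Δ against 46.5 and 45.9 in WT, and both *pab2*Δ values were the lower ones. Its log2 difference was −0.13 (SE 0.041, limma adjusted p = 0.0307), 0.32 below the all-gene median. With TMM scaling it was −0.34 (adjusted p = 0.000787), and with equal-sum scaling it changed sign to 0.08 without a call (adjusted p = 0.126). As deposited, the *not3* call was near the threshold. It was lost when any library but the first *pab2*Δ library was left out, with log2 differences from −0.14 to −0.08. Without a *clr4-1* library the difference stayed at −0.13, and only the spread shared by the strains changed. The call was also lost in a fit of the 4 WT and *pab2*Δ libraries alone (limma adjusted p = 0.0507).

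*mot2*, for the ubiquitin ligase, was at 57.8 and 58.4 FPKM in *pab2*Δ against 49.7 and 46.4 in WT. The *pab2*Δ values were higher without overlap, by a log2 difference of 0.27 (SE 0.042, limma adjusted p = 0.00192), which is 0.08 above the all-gene median. With TMM scaling the difference was 0.06 and was not called (adjusted p = 0.242). *rcd1* was at 16.0 and 16.6 FPKM in *pab2*Δ against 20.9 and 21.5 in WT. Both *pab2*Δ values were below both WT values, with a ratio of means of 0.768 and a log2 difference of −0.36 (SE 0.059, limma adjusted p = 0.00228). This was the largest fall among the 6 genes, 0.56 below the all-gene median. With TMM scaling it was −0.56 (adjusted p = 0.000488), and with equal-sum scaling it was −0.16 and was not called (adjusted p = 0.0619). Under TMM scaling limma thus called 1 of the 6 higher, beside 32.9% of all genes, and 2 lower, beside 34.5%. With equal-sum scaling it called 4 higher, beside 71% of all genes, and 0 lower, beside 11.5%, and 0 had a lower value at an unadjusted p under 0.05. Here and below, percentages of all genes called are for the adjusted p, and no share was counted at an unadjusted p.

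**Figure D2:**
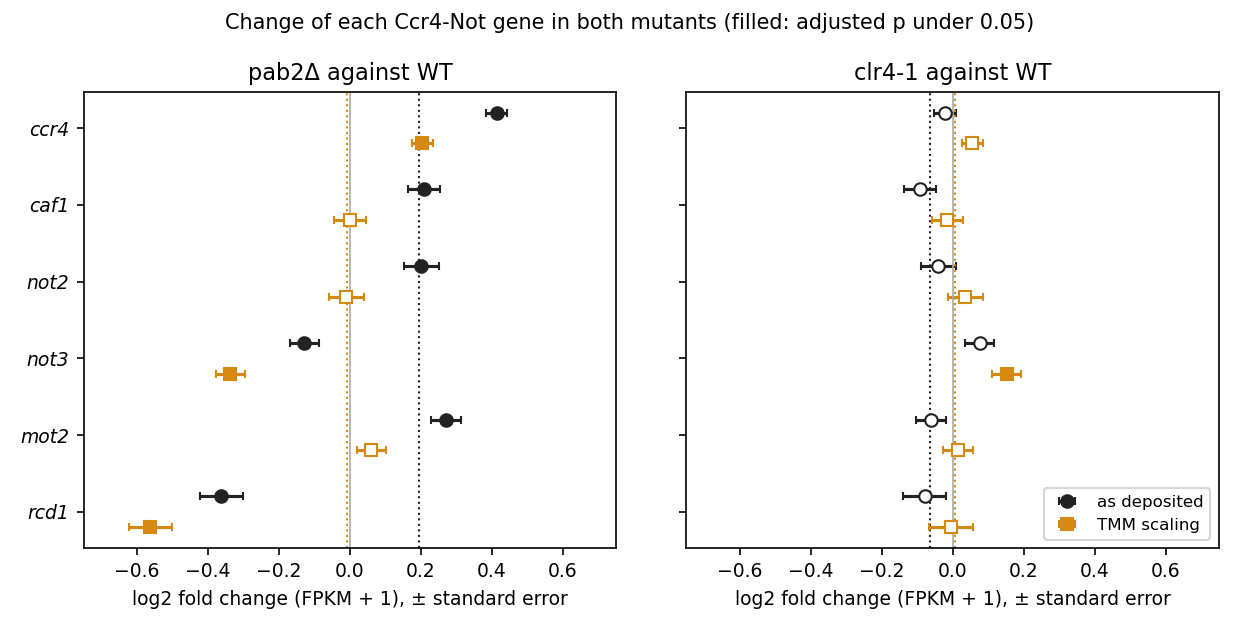
Log2 difference on the log2(FPKM + 1) scale of each subunit gene for *pab2*Δ against WT (left) and *clr4-1* against WT (right), as deposited (circles) and with TMM scaling (squares), with bars of 1 standard error from limma, filled symbols for an adjusted p under 0.05 and dotted lines at the medians of all genes tested. In *pab2*Δ, *ccr4* lies right of both medians, *not3* and *rcd1* lie left of both and are called under both scalings plotted, though neither is called with equal-sum scaling, where *not3* is at 0.08, and *caf1*, *not2* and *mot2* lie near the medians. In *clr4-1*, *not3* with TMM scaling is the only filled symbol.

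Ratios between subunit genes within a library do not depend on how libraries are scaled, and they were used to describe the balance of the set. With 2 libraries against 2, an exact permutation test cannot reach 0.05, so no test is given. The 6 genes summed to 284 and 276 FPKM in the WT libraries, to 316 and 319 FPKM in those of *pab2*Δ and to 274 FPKM in each *clr4-1* library. *ccr4* made up 24.3 and 23.7% of that sum in *pab2*Δ, against 19.9 and 20.7% in WT. *not3* made up 13.8 and 12.8% in *pab2*Δ, against 16.4 and 16.6% in WT. *rcd1* made up 5.07 and 5.21% in *pab2*Δ, against 7.36 and 7.80% in WT. The other 3 genes changed less: the *caf1* share was 15.9 and 15.5% in *pab2*Δ, against 15.7 and 15.0% in WT. *not2* held 22.6 and 24.5% in *pab2*Δ, against 23.2 and 23.1% in WT, ranges that overlapped. *mot2* held 18.3% in each *pab2*Δ library, against 17.5 and 16.8% in WT.

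The ratio of *ccr4* to *rcd1* was 4.80 and 4.55 in *pab2*Δ, against 2.70 and 2.66 in WT and 2.93 and 2.67 in *clr4-1*. Both *pab2*Δ values were above every other library, a log2 change of 0.80 from WT. The ratio of *ccr4* to *not3* was 1.76 and 1.85 in *pab2*Δ, against 1.22 and 1.25 in WT, a log2 change of 0.55. The ratio of *not3* to *mot2* went from 0.934 and 0.990 in WT to 0.754 and 0.698 in *pab2*Δ, a log2 change of −0.41. Of the 15 ratios between pairs of the 6 genes, 11 lay above and 2 below the WT range in both *pab2*Δ libraries, and 2 lay above and 5 below it in both *clr4-1* libraries. Over all pairs of tested genes without a 0 in any library, 85.9% lay outside the WT range in *pab2*Δ and 71.1% in *clr4-1*, in either direction. The *pab2*Δ count is thus close to the background and the *clr4-1* count is under it, though the 15 ratios share 6 genes and are not independent. The ratios of *caf1* to *not2* and of *not2* to *mot2* overlapped WT in *pab2*Δ. The level order changed as well: in *pab2*Δ, *ccr4* at 76.8 and 75.4 FPKM overlapped *not2* at 71.3 and 78.2, which was ahead of it in WT and *clr4-1*, and *not3* lay below *caf1*.

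**Figure D3:**
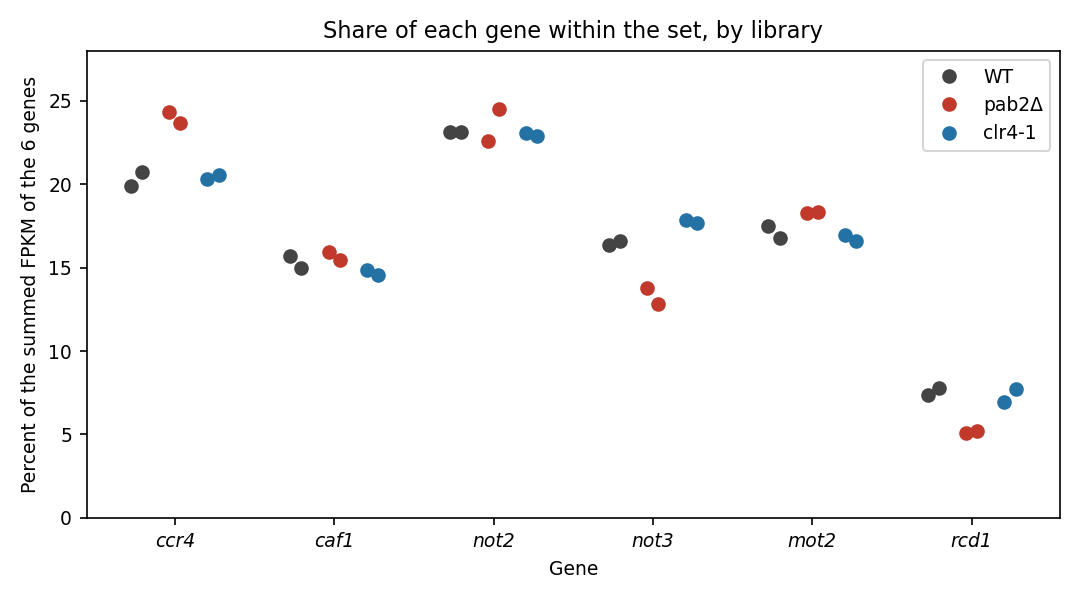
Share of each subunit gene in the summed FPKM of the 6 genes, in percent, with 1 point per library and the strains side by side. The *ccr4* share is 24.3 and 23.7% in *pab2*Δ against 19.9 and 20.7% in WT, while the *not3* and *rcd1* shares lie lower in *pab2*Δ than in the other strains.

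In *clr4-1* the subunit genes stayed near their WT levels. Limma called 0 of the 6 as deposited, where 15.1% of all genes were called higher and 27.5% lower. At an unadjusted p under 0.05, a cutoff at which no all-gene share was counted, there were also 0 of the 6. With TMM scaling 1 gene had an unadjusted p under 0.05 and was called, *not3*, and with equal-sum scaling 1 gene had an unadjusted p under 0.05 and 0 were called, where 12.6% of all genes were called higher and 29.3% lower. The median log2 difference of the 6 was −0.05, beside −0.06 for all genes. *ccr4* was at 55.7 and 56.4 FPKM in *clr4-1*, *caf1* at 40.7 and 39.9, and *not2* at 63.2 and 62.8. These 3 genes lay below WT without overlap, as 46.8% of all genes did, with log2 differences of −0.02 for *ccr4*, −0.09 for *caf1* and −0.04 for *not2*. Their 95% intervals in the limma fit all hold 0. The widest, that of *not2*, ran from −0.16 to 0.08, and that of *caf1* reached lowest, from −0.20 to 0.02.

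*not3* went the other way, at 49.0 and 48.5 FPKM in *clr4-1* against 46.5 and 45.9 in WT. It was above WT without overlap, as 26.7% of all genes were, by a log2 difference of 0.08 (95% interval −0.03 to 0.18, limma adjusted p = 0.185). With TMM scaling the difference was 0.15 and was called (adjusted p = 0.0329), where 22.4% of all genes were called higher and 16.2% lower. *mot2* was at 46.5 and 45.5 FPKM in *clr4-1* and *rcd1* at 19.0 and 21.1, and both overlapped WT. Their log2 differences were −0.06 for *mot2* (95% interval −0.17 to 0.04) and −0.08 for *rcd1* (95% interval −0.23 to 0.07). None of the 6 passed the rule that all 4 ratios exceed 2-fold, which 1.98% of all genes passed, or the rule at 1.5-fold, which 4.68% passed.

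Compared directly, *pab2*Δ and *clr4-1* did not overlap for any of the 6 genes: 4 were above *clr4-1*, as 68% of all genes were, and 2 below, as 21.2% were. Limma called 4 higher in *pab2*Δ, beside 61.1% of all genes, and 2 lower, beside 17.4%, with an all-gene median of 0.27. None passed the 2-fold rule, which 10.6% of all genes passed, or the 1.5-fold rule, which 26.2% passed. *ccr4* was higher by 0.43 on the log2 scale (SE 0.030, limma adjusted p = 5.78e-05) and stayed higher with TMM scaling, at 0.15 (adjusted p = 0.00638). *rcd1* was lower, at −0.28 (adjusted p = 0.00574), and *not3* at −0.21 (adjusted p = 0.00471). With TMM scaling both were still lower, and with equal-sum scaling neither was called and *not3* changed sign to 0.02. The log2 differences of *caf1* (0.30), *not2* (0.24) and *mot2* (0.33) lay near the all-gene median, and none of the 3 was called with TMM scaling. The counts were 1 higher (33.5% of all genes) and 2 lower (35.3%) with TMM, and 4 higher (77.3%) and 0 lower (10.2%), also at an unadjusted p under 0.05, with equal-sum scaling.

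The scaffold gene and the other decay genes were described from a list of 32 genes: *not1*, the PAN deadenylase genes, the cytoplasmic poly(A)-binding protein and poly(A) polymerase genes, decapping and 5′ to 3′ decay genes, RNA-binding proteins that recruit decay factors, and Ski complex and nonsense-mediated decay genes. In *pab2*Δ against WT, limma called 9 of the 32 higher and 9 lower as deposited, where 53.8% of all genes were higher and 19.9% lower. With TMM scaling it called 1 higher and 22 lower, beside 32.9% and 34.5% of all genes, and with equal-sum scaling 18 higher and 4 lower, beside 71% and 11.5%. The list's median log2 difference was −0.06, beside 0.19 for all genes. Of the 16 decapping and 5′ to 3′ decay genes, 4 were called higher and 5 lower as deposited, 12 lower with TMM scaling, and 8 higher and 2 lower with equal-sum scaling. Of the 7 Ski complex and nonsense-mediated decay genes, 3 were called higher and 1 lower as deposited, 4 lower with TMM scaling, and 4 higher with equal-sum scaling. For both groups the balance between calls higher and lower thus turned with the scaling. Genes called as deposited kept or lost the call and were not called the other way. The all-gene shares just given are the background of both groups. *not1*, for the scaffold, was at 15.0 and 15.1 FPKM in *pab2*Δ against 18.8 and 18.9 in WT. It was lower without overlap, with a log2 difference of −0.30 (SE 0.043, limma adjusted p = 0.00129). With TMM scaling it was −0.50 and called, and with equal-sum scaling it was −0.11 and not called (adjusted p = 0.0656).

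PAN is a second deadenylase, made of the nuclease Pan2 and its partner Pan3. *pan3* fell in *pab2*Δ, from 25.0 and 23.9 FPKM in WT to 17.5 and 18.4, with a log2 difference of −0.42 (limma adjusted p = 0.000453). *pan2* was at 19.7 and 20.2 FPKM in *pab2*Δ against 19.0 in both WT libraries and was not called as deposited (log2 difference 0.07, limma adjusted p = 0.185), and the rescaled fits gave opposite calls, lower with TMM scaling at −0.14 (adjusted p = 0.0236) and higher with equal-sum scaling at 0.26 (adjusted p = 0.0015). *mmi1*, for the RNA-binding protein described above, was at 78.7 and 79.4 FPKM in *pab2*Δ against 46.1 and 43.2 in WT. It was the only one of the 32 whose 4 ratios all passed 1.5-fold, a rule that 21.1% of all genes passed in either direction. *mmi1* was called higher under all 3 scalings (as deposited 0.81, SE 0.052, limma adjusted p = 5.09e-05). The genes for the Lsm ring proteins *lsm5* and *lsm6*, which bind the 3′ ends of deadenylated mRNAs, had log2 differences of −0.43 and −0.41 that stood close to the threshold (limma adjusted p = 0.0350 and 0.04997). Both were called lower with TMM scaling. With equal-sum scaling neither was called, at −0.22 and −0.20 (limma adjusted p = 0.181 and 0.223). Of the 6 fits without 1 library, 2 lost the *lsm5* call and 5 lost the *lsm6* call, and *lsm6* was −0.17 without the second *pab2*Δ library. Of the alternatives listed in the methods, the fit without a trend lost both calls. Pseudocount 5, no filter and the fit of 4 libraries each lost the *lsm6* call.

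In *clr4-1* against WT, limma called 1 of the 32 higher and 14 lower as deposited, where 15.1% of all genes were higher and 27.5% lower. With TMM scaling it called 2 higher and 4 lower, beside 22.4% and 16.2% of all genes. With equal-sum scaling it called 0 higher (0 also at an unadjusted p under 0.05) and 16 lower, beside 12.6% and 29.3%. *rec14*, for a Ski complex subunit, showed the largest fall, from 52.5 and 50.1 FPKM in WT to 41.2 and 39.4, with a log2 difference of −0.34 (SE 0.042, limma adjusted p = 0.00258). It was also called with TMM scaling, at −0.26. *pan3* was at 20.4 and 21.0 FPKM in *clr4-1*, a log2 difference of −0.23 (limma adjusted p = 0.0129), and *pan2* at 17.3 and 16.7, a log2 difference of −0.16 (adjusted p = 0.0275). With TMM scaling *pan3* was still called and *pan2* was not, and leaving out any WT or *clr4-1* library also lost the *pan2* call (adjusted p 0.0564 to 0.107). Leaving out WT replicate 1 or *clr4-1* replicate 1 lost the *pan3* call, at log2 differences of −0.20 and −0.21. *zfs1*, for an RNA-binding protein that promotes mRNA decay, and *ski3*, for a Ski subunit, had log2 differences of −0.29 and −0.25 (limma adjusted p = 0.0329 for both) and lost the call with TMM scaling. The *zfs1* call was lost without any 1 of the 6 libraries (adjusted p 0.0509 to 0.145), and the *ski3* call without any but the second *pab2*Δ library (highest adjusted p 0.109). *not1* was at 17.6 and 16.7 FPKM in *clr4-1* and was not called (log2 difference −0.12, limma adjusted p = 0.0657).

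Compared directly, *pab2*Δ was higher than *clr4-1* for 12 of the 32 list genes and lower for 7 by limma, beside 61.1% and 17.4% of all genes. With TMM scaling the split was 4 higher and 17 lower, beside 33.5% and 35.3%, and with equal-sum scaling 24 higher and 2 lower, beside 77.3% and 10.2%. The largest differences among the called were those of *mmi1* (0.88), *zfs1* (0.59), *ski2*, for the Ski helicase (0.48), and *lsm5* (−0.47). The *lsm5* call was lost with equal-sum scaling (−0.24, limma adjusted p = 0.135), without the second *pab2*Δ library (−0.36, adjusted p = 0.129) and without *clr4-1* replicate 2 (−0.32, adjusted p = 0.112). *not1* was lower in *pab2*Δ than in *clr4-1* by a log2 difference of −0.18 (limma adjusted p = 0.0105) and *pan3* by −0.19 (adjusted p = 0.0108), while *pan2* was higher, at 0.22 (adjusted p = 0.00317). The *pan3* call was lost without the first *pab2*Δ library (−0.16, adjusted p = 0.0608) or *clr4-1* replicate 2 (−0.17, adjusted p = 0.0545). With TMM scaling *pan2* turned to −0.06 in this comparison, and with equal-sum scaling *not1* turned to 0.04 and *pan3* to 0.02.

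**Figure D4:**
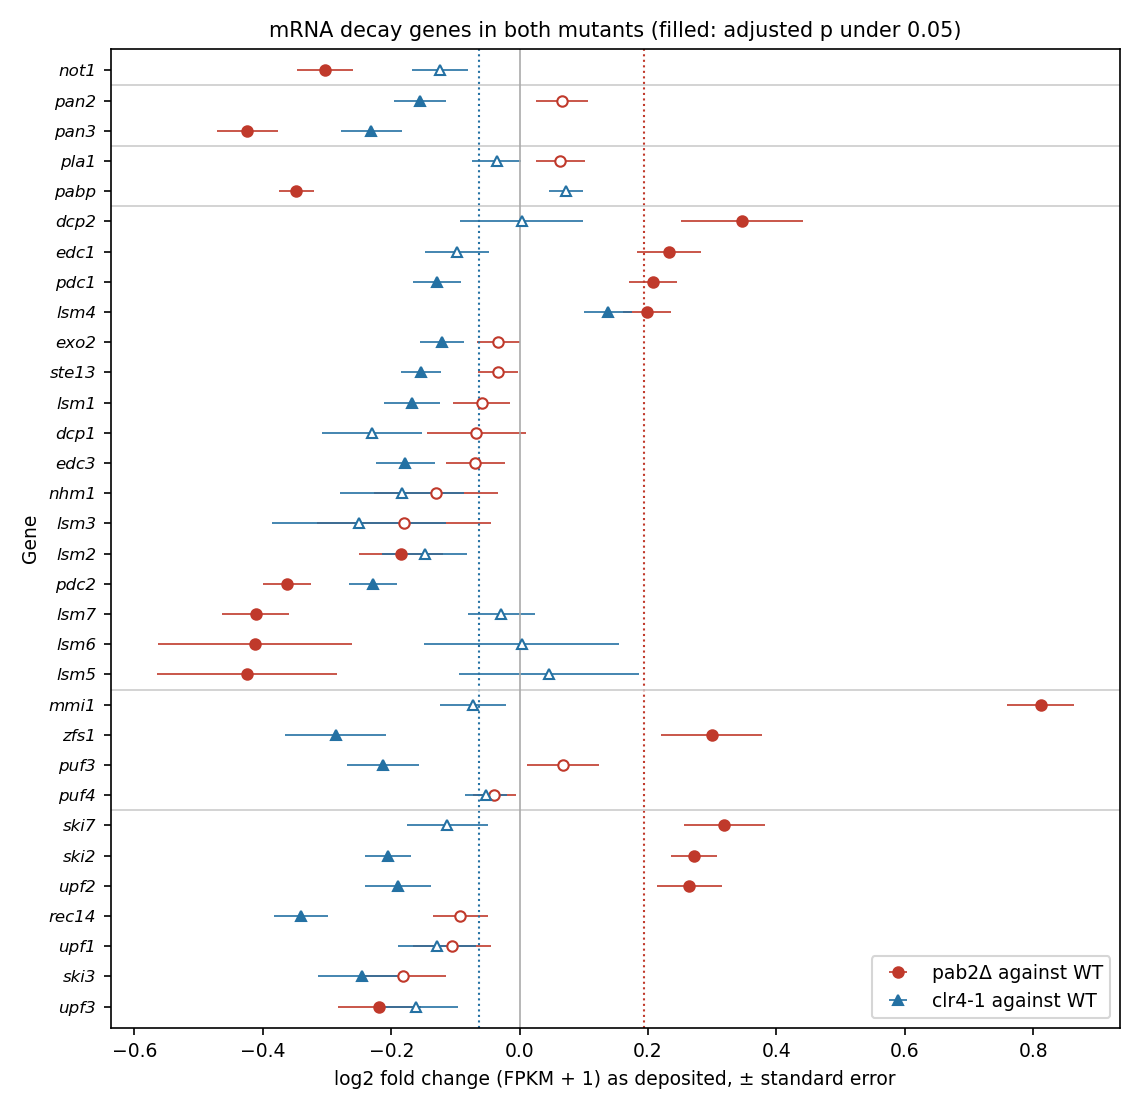
Log2 difference as deposited, on the log2(FPKM + 1) scale, of the 32 listed decay genes for *pab2*Δ against WT (circles) and *clr4-1* against WT (triangles), in functional groups parted by grey lines, with bars of 1 standard error from limma, filled symbols for an adjusted p under 0.05 and dotted lines at the medians of all genes tested. *mmi1* stands highest in *pab2*Δ at 0.81, and *not1* at −0.30 and *pan3* at −0.42 lie left of 0 there, *not1* without a call under equal-sum scaling.

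For each subunit gene, the 2 tested genes with the most similar profile over the 6 libraries were found from the root mean square difference of centred log2 values. For *ccr4* they were *nrl1* (0.0139) and *fil1* (0.0144), and for *caf1* they were *ure4* (0.0147) and *vps38* (0.0227). For *not2* they were *tah18* (0.0175) and *snd1* (0.0230), and for *mot2* *pom2* (0.0199) and *ire1* (0.0247). *not3* was nearest to *rps1a* (0.0149) and *rpl31a* (0.0202), both named as ribosomal protein genes. *rcd1* was nearest to *ser3* (0.0392) and *lys9* (0.0402), at a larger distance than the other 5 genes had to their nearest. These values describe likeness over 6 libraries of 3 strains only.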

How the data were processed

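The authors sequenced total RNA of the 3 strains, 2 libraries each. The deposited table holds FPKM values for 5272 genes in 6 libraries; no unit is stated in the table, and FPKM was inferred from its column style and values. The table also has 4 ratio columns, which the authors computed as mutant over WT FPKM and which were not used. The submitters' processing notes name FastQC 0.11.6, STAR 2.5.3a and StringTie 1.3.1c; the genome build and annotation are not given in the sources used here. The *pab2*Δ columns carry no replicate number and were called first and second.

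From these values, log2(FPKM + 1) of the 4899 genes whose 6-library mean reached 1 FPKM was fitted in R 4.3.3 with limma 3.58.1, strain as the only term and an intensity trend. Benjamini-Hochberg adjustment ran over all genes tested, and an adjusted p under 0.05 was a call. With a pseudocount, a fold change of a low gene is understated. The script was tested on simulated data in which some genes rose or fell. The simulation held no transcriptome-wide shift like that in *pab2*Δ, so it does not bear on calls that depend on the scaling. No depth is known, so no count test, counting interval or floor was used, and intervals are those of the limma fit, and p-values measure only the spread between 2 libraries per strain. Alternatives were pseudocounts 0.1 and 5, no filter or a mean of 5, unweighted TMM scaling (trim 30% of log ratios and 5% of levels), equal FPKM sums for all libraries, fits of 4 libraries, a replicate block, no trend, and leaving out each library.

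The rule for genes named was all 6 subunit genes, then *not1*, *pan2* and *pan3*. Next came every called gene of the 32 in a contrast if 8 or fewer, otherwise the 4 with the largest change. The 2 genes nearest each subunit gene were also named. *pab2* was a strain check, and *clr4* was given with it though its level checks no label. The members and the lists were chosen with earlier results of these data known. Figures were drawn with Python 3.11.15 and matplotlib 3.10.9.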

Additional observations from a re-analysis of the deposited data

How the results depend on the processing

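Limits: 2 libraries per strain, values without depth, and a transcriptome-wide shift in *pab2*Δ of which the cause was not tested. Over the genes named and the alternatives run, 584 results kept their direction and call. With the same sign, 71 lost the call and 13 gained one. Another 20 changed sign, and some of these also lost or gained a call. Of the 6 subunit genes, limma called 3 with TMM scaling against 6 as deposited in *pab2*Δ against WT, 1 against 0 in *clr4-1* against WT, and 3 against 6 in *pab2*Δ against *clr4-1*. Leaving out 1 library gave 4 to 6, 0 and 6. For the 32 decay genes in *clr4-1*, 15 were called as deposited, 6 with TMM scaling and 4 to 10 when 1 library was left out. A fit of the 4 WT and *clr4-1* libraries called 11 of them, beside 1898 of all genes tested. With the replicate block it called 9, beside 1577 of all genes. The all-gene shares as deposited and with TMM scaling are given above for each comparison. No all-gene share was counted for the fits without 1 library, which have fewer libraries to estimate the spread of every gene. The counts from those fits therefore cannot tell whether the subunit or decay genes lost calls more readily than other genes.

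Signs changed as follows in *pab2*Δ against WT: *not2* to −0.0099 and *pan2* to −0.14 with TMM, and *not3* to 0.075 and *rec14* to 0.11 with equal-sum scaling. In *clr4-1* against WT, TMM gave 0.056 for *ccr4*, 0.036 for *not2*, 0.016 for *mot2* and 0.0040 for *mmi1*. There *lsm6* was −0.017 with equal-sum scaling, and leaving out 1 library gave −0.077 to 0.083 for *lsm6* and −0.107 to 0.198 for *lsm5*. In *pab2*Δ against *clr4-1*, TMM gave −0.046 for *not2*, −0.055 for *pan2*, −0.037 for *rec14* and −0.18 for *ski3*, and equal-sum scaling gave 0.018 for *not3*, 0.036 for *not1* and 0.024 for *pan3*. The causes were not tested.

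The WT and *clr4-1* libraries share the replicate numbers 1 and 2, and nothing in the labels says that a number marks a shared batch. Across 4899 genes the deviations of same-numbered libraries correlated at −0.094, and a fit of these 4 libraries called 1898 genes, or 1577 with the replicate block. No block was fitted for *pab2*Δ, whose columns carry no replicate number and were not paired by their place in the table.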

Other observations

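Other genes named after Ccr4-Not or its partners were read after their values were seen and are counted in no list. *not11* was at 36.1 and 34.8 FPKM in *pab2*Δ, against 25.6 and 29.2 in WT and 26.7 and 25.8 in *clr4-1*. The *pab2*Δ values were above all others, where 61.4% of all genes lay above WT without overlap. The log2 difference from WT was 0.36 (limma adjusted p = 0.00387), 0.17 above the all-gene median. With TMM scaling it was 0.16 and not called (adjusted p = 0.0862), and with equal-sum scaling 0.56 and called (adjusted p = 0.000497). *caf16* was at 68.3 and 75.5 FPKM in *pab2*Δ, against 57.0 and 55.0 in WT and 49.2 and 46.4 in *clr4-1*. It was higher in *pab2*Δ by 0.35 (limma adjusted p = 0.00244) and lower in *clr4-1*, at −0.23 (adjusted p = 0.0278). With TMM scaling neither was called, at 0.14 in *pab2*Δ (adjusted p = 0.0692) and −0.15 in *clr4-1* (adjusted p = 0.0896). With equal-sum scaling both were called, at 0.56 in *pab2*Δ (adjusted p = 0.00021) and −0.24 in *clr4-1* (adjusted p = 0.0207). *mdv1*, at 5.65 and 4.85 FPKM in *pab2*Δ against 4.32 and 5.20 in WT, overlapped WT and was not called (log2 difference 0.12, limma adjusted p = 0.376). *SJAG_04519*, described in the table as a member of the CCR4/nocturnin family, was at 27.8 and 27.7 FPKM in *pab2*Δ against 23.9 and 25.6 in WT. It was called higher as deposited, at 0.16 (limma adjusted p = 0.0249), and with TMM scaling its sign turned to −0.04 without a call. With equal-sum scaling it was 0.36 and called (limma adjusted p = 0.0013).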
